A study of Mus musculus with 7 samples.

Results

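Cytokine and growth factor receptors, together with the kinases, transcription factors and inhibitors that pass on their signals, were followed as a set of 49 genes in haematopoietic stem cells (HSCs) of old and young mice. The set was a list of gene symbols: haematopoietic cytokine receptors, receptor tyrosine kinases with the ligand Angpt1, and JAK, STAT and SOCS family genes with related inhibitors. All 49 were found among the 24015 genes of the deposited table. Bone marrow cells of C57BL/6 mice were sorted by flow cytometry for the HSC phenotype LSK (lineage-negative, Sca-1+, c-Kit+) CD150+ CD48-, and polyadenylated RNA of the sorted cells was sequenced as a bulk. There were 3 libraries labelled Old-HSC and 4 labelled Young-HSC. No allele, treatment or transplant is named in the labels for either group, ages are not stated, and nothing says that the libraries stem from separate mice. The p-values thus cover only the spread among these libraries, which may be technical. In bulk RNA, fewer cells that express a gene and less RNA of it per cell cannot be told apart.

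Cytokines bind receptors that lack an enzyme of their own. Janus kinases (JAKs) bound to the receptor phosphorylate it and the STAT transcription factors, which move to the nucleus, and genes that STATs switch on, such as Cish and the Socs genes, act back to silence the receptor. Receptor tyrosine kinases carry the kinase in the receptor itself. In bone marrow, thrombopoietin, stem cell factor and the angiopoietin receptor Tek (Tie2) are known for their part in keeping HSCs, while receptors for colony-stimulating factors and interleukins steer the maturing lineages.

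The libraries held 22203806 (young 1) to 32401925 (old 2) counts. A level is given in CPM, read counts relative to the library total after TMM scaling. A library without a count allowed a level of up to 0.0929 to 0.137 CPM, the worth of 3 counts. No molecular identifiers were stated, so this limit covers counting error only. On the first principal component young 1 stood apart from the other 6 libraries, and on the second young 2 did. Fits leaving out 1 library were followed for 14 tested genes, chosen by the rule given at the end. Where the log2 fold change of these moved by over 1.5 times, the lowest and highest values of these fits are given. Tek, Tie1, Csf3r and Il18r1, also written out by library, were not followed in this way, so nothing is said of their stability.

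Of the 49 genes, 26 had a count in every library, 18 in some of them and 5 in none. The 5 without a count were Csf1r, the receptor of macrophage colony-stimulating factor, Flt1, a receptor of vascular endothelial growth factor, Il7r, the receptor chain that lymphoid progenitors use, Lepr, the leptin receptor known from marrow stroma, and Il13ra1, a chain of the interleukin 13 receptor. Levels differed widely between the genes. Per kilobase of exon, Il2rg had the highest mean level over the 7 libraries (339.8 CPM per kb), followed by Angpt1 (111), Stat4 (65.6), Jak1 (33.5) and Pias1 (33.3 CPM per kb). The other genes with over 20 CPM per kb were Il15ra (24.8), Il10rb (23.8), Il27ra (22.8) and Il11ra1 (21.1 CPM per kb). Tek was at 10.6 CPM per kb, and the receptor kinases Insr, Igf1r and Fgfr1 were at 1.70, 1.81 and 1.37 CPM per kb.

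**Figure D1:**
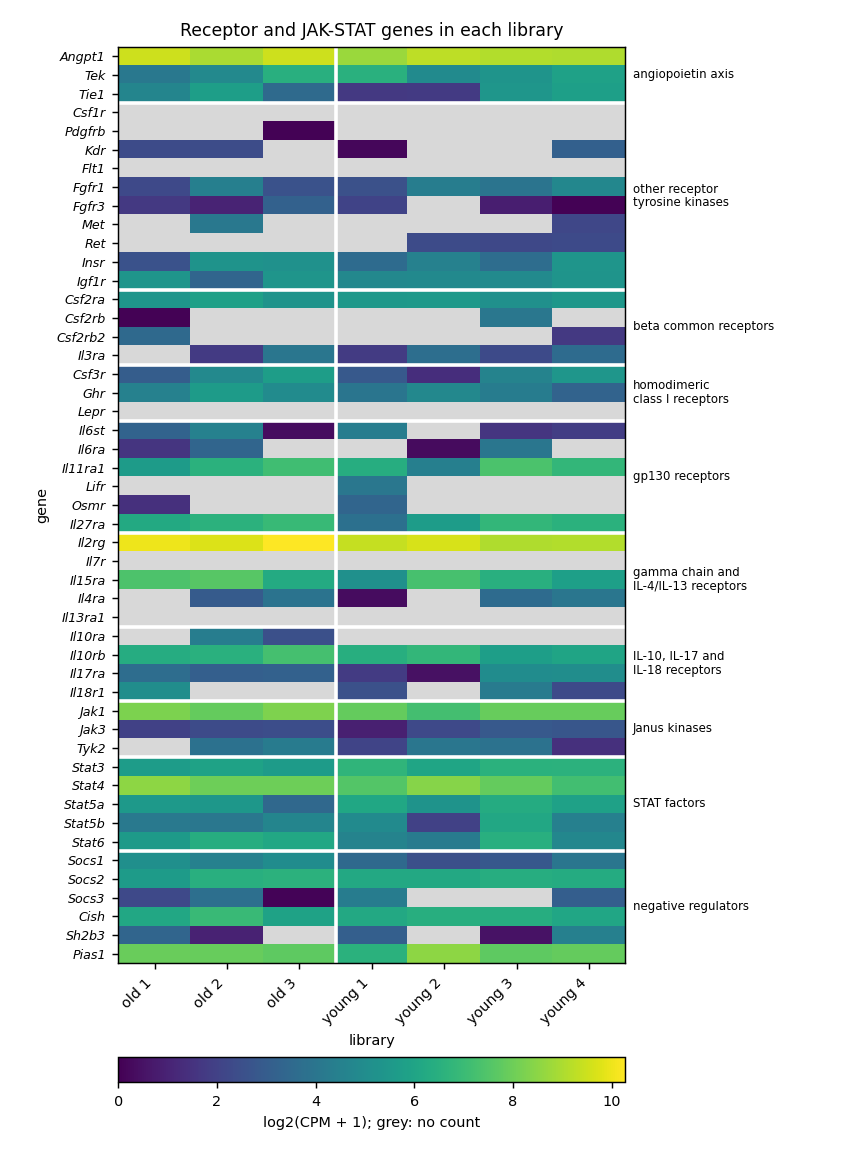
Level of each of the 49 genes (rows, grouped by role) in the 3 old and 4 young libraries (columns), coloured by log2(CPM + 1), with grey for no count. Il2rg and Angpt1 are bright in all 7 libraries, 5 rows are grey throughout, and 2 receptors, Lifr and Pdgfrb, have a count in 1 library only.

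The comparison of old with young HSCs addresses the change of HSC transcription during ageing. None of the 37 genes of the set with counts in enough libraries to be tested passed an adjusted p of 0.05 (edgeR quasi-likelihood test, Benjamini-Hochberg over 11506 genes), against 0.252% of all tested genes. At an unadjusted p under 0.05 there were 3 of the 37, against 9.12% of all tested genes: Il2rg was higher in old HSCs, and Stat3 and Ret were lower. For Stat3 this held without young 2 alone among the 7 fits that leave out 1 library, with p from 0.0559 to 0.106 in the other 6. For Il2rg it was lost without old 3 (edgeR, unadjusted p of 0.0503). Ret had counts in young 2, 3 and 4 alone and passed the count filter only through them. Without any 1 of these it was not tested, so its p is no separate support for a difference. DESeq2, run as an alternative, called 2 genes of the set, Il2rg and Il10ra, both higher in old, and 5.06% of all the genes it gave an adjusted p. The groups did not overlap for 3 of the 37, Il2rg and Socs1 above and Stat3 below the young libraries, against 12.7% of all tested genes. Of the 37, 23 had a positive log2 fold change and the median was 0.12, beside 48.5% positive and a median of -0.03 over all tested genes. The median was -0.01 without old 2, 0.31 without young 3, 0.25 without old 1, 0.24 without young 4 and 0.06 without young 1. The remaining 12 genes of the set had counts in too few libraries for the test.

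The spread between libraries limited what the test could exclude. The 95% interval of the log2 fold change lay within 1 log2 unit of 0, a 2-fold change, for 5 of the 37: Angpt1, Jak1, Socs2, Cish and Pias1. For the other 32 the interval reached beyond a 2-fold change in at least 1 direction. Among the 26 genes with a count in every library, the highest library exceeded the lowest by 1.62 times for Csf2ra and by 1.73 times for Angpt1, and by 86.8 times for Il17ra, the interleukin 17 receptor chain.

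**Figure D2:**
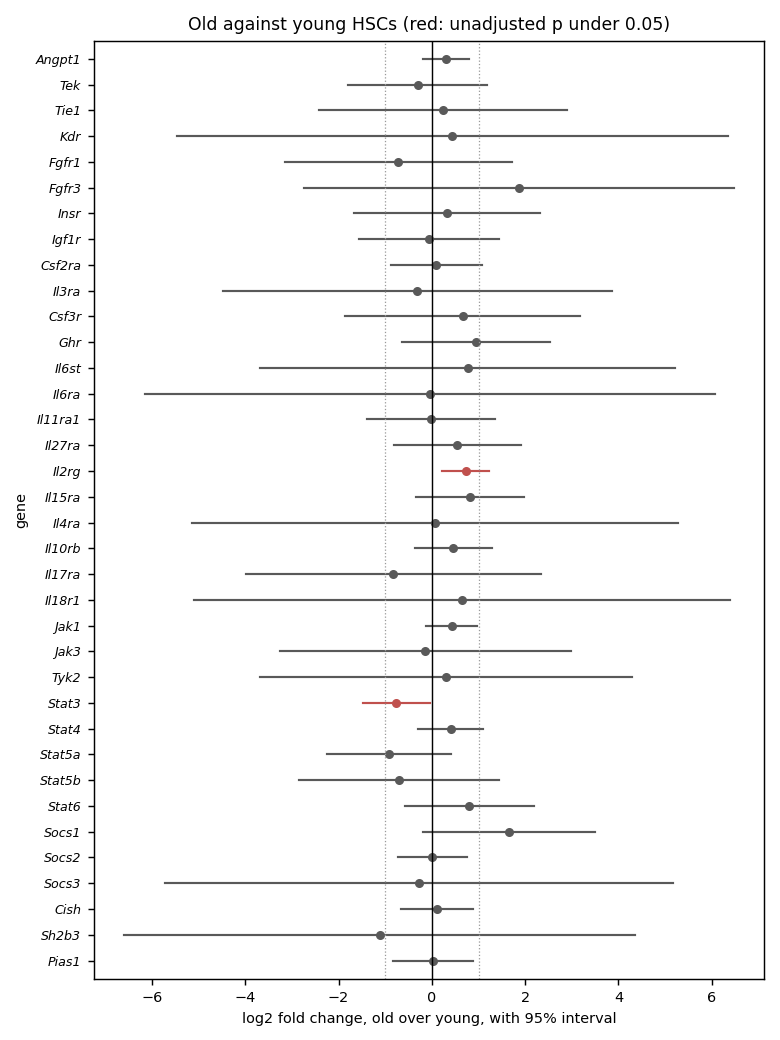
Log2 fold change of old over young HSCs (x axis) for 36 tested genes of the set (y axis), as points with 95% intervals from the edgeR fit; dotted lines mark 1 log2 unit, and Ret is left out because it had no count in old HSCs. The intervals of Il2rg and Stat3 (red) exclude 0, and those of weakly expressed receptors such as Il6ra and Kdr span more than 10 log2 units.

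The region before the transcription start is shown for 4 genes. Il2rg, Stat3 and Socs1 were the genes whose groups did not overlap. Socs3 is a close relative of Socs1 whose groups overlapped, with a 95% interval of -5.72 to 5.18 for its log2 fold change. The sequences are the 250 bases before the start as given by RefSeq for GRCm38.p6, a later build than the mm9 of the counts, and 37 of the 49 genes matched that table. They lie at chrX:101268256-101268505, minus strand (Il2rg), chr11:100939541-100939790, minus strand (Stat3), chr16:10785537-10785786, minus strand (Socs1) and chr11:117969367-117969616, minus strand (Socs3). Capitals mark matches to TTCNNNGAA, the letters of the STAT site, which reads alike on both strands, or to GAAANNGAAA on either strand, letters of the interferon response element.
Il2rg: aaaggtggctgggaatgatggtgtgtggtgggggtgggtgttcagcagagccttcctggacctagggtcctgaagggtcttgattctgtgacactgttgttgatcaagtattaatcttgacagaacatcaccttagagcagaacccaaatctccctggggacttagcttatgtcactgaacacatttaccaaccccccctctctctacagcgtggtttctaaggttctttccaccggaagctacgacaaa
Stat3: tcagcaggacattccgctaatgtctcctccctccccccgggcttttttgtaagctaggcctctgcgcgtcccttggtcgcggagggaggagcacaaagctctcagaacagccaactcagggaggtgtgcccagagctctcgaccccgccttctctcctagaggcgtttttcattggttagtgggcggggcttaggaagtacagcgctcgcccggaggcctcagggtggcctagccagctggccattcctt
Socs1: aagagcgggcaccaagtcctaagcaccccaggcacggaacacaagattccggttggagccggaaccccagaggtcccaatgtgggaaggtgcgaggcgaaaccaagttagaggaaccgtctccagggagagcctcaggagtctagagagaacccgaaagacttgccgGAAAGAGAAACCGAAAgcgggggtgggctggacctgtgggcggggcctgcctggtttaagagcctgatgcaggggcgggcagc
Socs3: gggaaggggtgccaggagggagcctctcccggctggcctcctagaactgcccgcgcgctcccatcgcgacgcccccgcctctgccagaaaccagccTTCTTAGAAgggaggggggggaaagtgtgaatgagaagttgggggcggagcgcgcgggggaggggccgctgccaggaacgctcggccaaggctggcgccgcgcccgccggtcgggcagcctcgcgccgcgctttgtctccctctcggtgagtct
TTCNNNGAA occurred in 7.02% of all 32851 such windows and in 4 of the 48 windows of the set, those of Socs3, Csf2rb2, Il7r and 1 of the Il18r1 windows. GAAANNGAAA occurred in 2.98% of all windows and in 2 of the 48, those of Socs1, where 2 matches overlap, and of Stat4. The windows of Il2rg and Stat3 held neither. A match describes these letters only and does not show that a factor binds there.

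The common gamma chain had the highest level of the set. Il2rg, the chain shared by the receptors of interleukins 2, 4, 7, 9, 15 and 21, was at 1049, 852 and 1241 CPM in old 1 to 3 and at 654, 798, 532 and 551 CPM in young 1 to 4. Every old library lay above every young one, with old 2 and young 2 the closest. The means were 1047 ± 194 CPM (SD, n = 3) in old HSCs against 634 ± 122 CPM (SD, n = 4) in the young, a log2 fold change of 0.72 ± 0.22 (SE) with a 95% interval of 0.23 to 1.22 and an adjusted p of 0.281 (edgeR). DESeq2 called it (adjusted p = 0.0286), but in only 2 of the 7 fits that leave out 1 library, those without old 2 and without young 2. Without old 1, old 3, young 1, young 3 and young 4 its DESeq2 adjusted p was 0.136, 0.243, 0.0819, 0.0960 and 0.124. Of the 50-base stretches in Il2rg transcripts, 27.5% also occur in a transcript of the predicted gene Gm20489, so part of its reads could have been lost or assigned elsewhere.

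The receptor chains grouped by role with Il2rg were lower or without a count. Il15ra, which binds interleukin 15, was at 77.0 to 195 CPM in the old and 34.6 to 155 CPM in the young libraries, so the groups overlapped (log2 fold change 0.81 ± 0.51 (SE), adjusted p = 0.770). Il4ra, the interleukin 4 receptor chain, was at 0 to 14.1 CPM in the old and 0 to 15.4 CPM in the young libraries. Il7r and Il13ra1 had no count. Jak3, the kinase that binds the gamma chain, was at 2.95 to 4.42 CPM in the old and 0.876 to 6.39 CPM in the young libraries, 0.757 CPM per kb against 339.8 for Il2rg.

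Of the interleukin 10, 17 and 18 receptors, Il10rb, the second chain of the interleukin 10 receptor, was the highest in CPM. It was at 80.5, 92.0 and 149.7 CPM in old 1 to 3 and 86.9, 109, 52.8 and 63.3 CPM in young 1 to 4, with old 1 and old 2 inside the young range (log2 fold change 0.46 ± 0.36 (SE), adjusted p = 0.868). The log2 fold change of Il10rb was 0.14 without old 3 and 0.67 without young 2. Of the 50-base stretches of Il10rb, 13.9% also occur in other genes. Il10ra, the chain that binds interleukin 10, was without a count in the young libraries and at 0, 19.5 and 4.65 CPM in old 1 to 3. It had counts in too few libraries for the edgeR test, and a mean of 8.06 CPM in old HSCs, at least 67.0-fold above the worth of 3 counts per young library. Most of this came from old 2, without which the mean was 2.32 CPM and the bound 19.3-fold. DESeq2 called it (adjusted p = 0.0415), and no longer did so without old 2 (0.271), young 3 (0.0592) or young 4 (0.0589). Il17ra was at 7.55 to 11.9 CPM in the old and 0.365 to 31.7 CPM in the young libraries. Il18r1, the interleukin 18 receptor, was at 31.7, 0 and 0 CPM in old 1 to 3 and 4.77, 0, 18.2 and 3.90 CPM in young 1 to 4. Its log2 fold change was 0.65 ± 2.55 (SE, adjusted p = 0.986, edgeR). Without old 1, which held its only old counts, its unadjusted p was under 0.05 (edgeR).

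The angiopoietin axis was expressed without a detectable difference. Angpt1, the secreted ligand of Tek, was at 722, 499 and 711 CPM in old 1 to 3 and 418, 618, 538 and 524 CPM in young 1 to 4. Old 2 lay inside the young range and the other 2 old libraries above it. The log2 fold change was 0.30 ± 0.22 (SE) with a 95% interval of -0.19 to 0.79 (adjusted p = 0.842, edgeR). Of the 50-base stretches of Angpt1, 13.3% also occur in another gene. The receptor Tek was at 16.4, 27.8 and 87.7 CPM in old 1 to 3 and 90.1, 28.9, 39.1 and 58.7 CPM in young 1 to 4, with the highest values in old 3 and young 1. Tie1, a related receptor without a ligand of its own, was at 24.6, 53.6 and 10.7 CPM in old 1 to 3 and 2.28, 2.33, 41.4 and 54.3 CPM in young 1 to 4, and its low values in young 1 and young 2 did not follow the groups. The 95% interval of the log2 fold change was -1.79 to 1.18 for Tek and -2.41 to 2.89 for Tie1, so a change of over 2-fold was not excluded for either.

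Among the other receptor tyrosine kinases, Igf1r, the receptor of insulin-like growth factor, was the most abundant in CPM, at 40.3, 9.13 and 39.9 CPM in old 1 to 3 and 26.8, 28.5, 29.1 and 39.2 CPM in young 1 to 4. Old 2 was the lowest of all libraries and the other values mixed (log2 fold change -0.06 ± 0.67 (SE), adjusted p = 0.995). The log2 fold change of Igf1r was -0.34 without old 1 and 0.36 without old 2. Ret, the receptor of glial cell-derived neurotrophic factors, had no count in old HSCs and was at 0, 4.06, 3.65 and 3.97 CPM in young 1 to 4. Young 1 also had no count, so the groups touched at 0. The mean of 2.92 CPM in young 1 to 4 was at least 27.3-fold above the worth of 3 counts per old library, with an adjusted p of 0.355 (edgeR). The insulin receptor Insr was at 5.06 to 38.1 CPM in the old and 11.1 to 39.9 CPM in the young libraries, and the fibroblast growth factor receptor Fgfr1 at 3.85 to 20.9 CPM in the old and 4.77 to 26.3 CPM in the young libraries. Fgfr3 and Kdr, a receptor of vascular endothelial growth factor, reached at most 8.03 and 7.94 CPM in any library. Met, the hepatocyte growth factor receptor, had counts in old 2 (16.1 CPM) and young 4 (3.52 CPM) alone, and Pdgfrb, the platelet-derived growth factor receptor of stromal cells, in old 3 alone, at 0.0384 CPM, below the worth of 3 counts.

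The receptors of myeloid growth factors overlapped between the groups, and Csf2ra and Csf3r had counts in every library. Csf2ra, which binds granulocyte-macrophage colony-stimulating factor, was at 40.2, 55.7 and 37.4 CPM in old 1 to 3 and 43.4, 45.4, 34.5 and 43.0 CPM in young 1 to 4, the narrowest spread of the 26 genes with a count in every library. Its log2 fold change was 0.10 ± 0.43 (SE) with a 95% interval of -0.88 to 1.07 (adjusted p = 0.987), and it was -0.11 without old 2 and 0.21 without old 3. Il3ra, the interleukin 3 receptor chain, was at 0 to 15.5 CPM in the old and 2.45 to 12.0 CPM in the young libraries. The beta chains had counts in 2 libraries each. Csf2rb, the chain shared with the interleukin 3 and granulocyte-macrophage colony-stimulating factor receptors, had counts in old 1 (0.0378 CPM) and young 3 (16.1 CPM), and Csf2rb2, a chain of the interleukin 3 receptor, in old 1 (10.5 CPM) and young 4 (2.23 CPM). These beta chains are close copies, and 18.9% of the 50-base stretches of Csf2rb2 also occur in another gene, nearly all in Csf2rb, so their counts are uncertain. Csf3r, the receptor of granulocyte colony-stimulating factor, was at 7.29, 27.8 and 51.3 CPM in old 1 to 3 and 6.40, 1.51, 23.3 and 41.8 CPM in young 1 to 4, both groups spanning low and high libraries.

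Of the receptors that signal as pairs of 1 chain, Ghr, the growth hormone receptor, had the smallest p. It was at 22.1, 48.4 and 29.7 CPM in old 1 to 3 and 15.1, 26.6, 18.9 and 8.57 CPM in young 1 to 4, with old 2 highest, young 4 lowest and old 1 inside the young range (log2 fold change 0.95 ± 0.71 (SE), adjusted p = 0.844, edgeR). Its log2 fold change was 0.56 without old 2 and 1.23 without young 2.

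In the family that signals through gp130, the ligand-binding chains Il11ra1 and Il27ra were the most abundant. Il11ra1, which binds interleukin 11, was at 49.1, 93.9 and 138 CPM in old 1 to 3 and 83.6, 20.4, 164 and 111 CPM in young 1 to 4, with the lowest and the highest value both in young libraries (log2 fold change -0.02 ± 0.61 (SE), adjusted p = 0.996). It was -0.41 without old 3 and 0.39 without young 3. Of its 50-base stretches 46.3% also occur in another gene, so its level is uncertain. Il27ra, the interleukin 27 receptor, was at 74.5, 97.2 and 119.7 CPM in old 1 to 3 and 12.8, 50.7, 109 and 94.2 CPM in young 1 to 4, with young 1 lowest and old 3 highest (log2 fold change 0.54 ± 0.60 (SE), adjusted p = 0.932). Its log2 fold change was 0.20 without young 1 and 0.89 without young 3. Il6st, which encodes gp130 itself, was at 0.269 to 22.0 CPM in the old and 0 to 19.6 CPM in the young libraries, 0.712 CPM per kb against 22.8 for Il27ra. Il6ra had counts in 4 libraries, at most 15.2 CPM in young 3. Lifr, the leukaemia inhibitory factor receptor, had counts in young 1 alone (15.8 CPM), and Osmr, the oncostatin M receptor, in young 1 (9.33 CPM) and old 1 (1.70 CPM). The mean of Lifr in young HSCs was at least 36.9-fold above the worth of 3 counts per old library, and this rests on young 1.

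**Figure D3:**
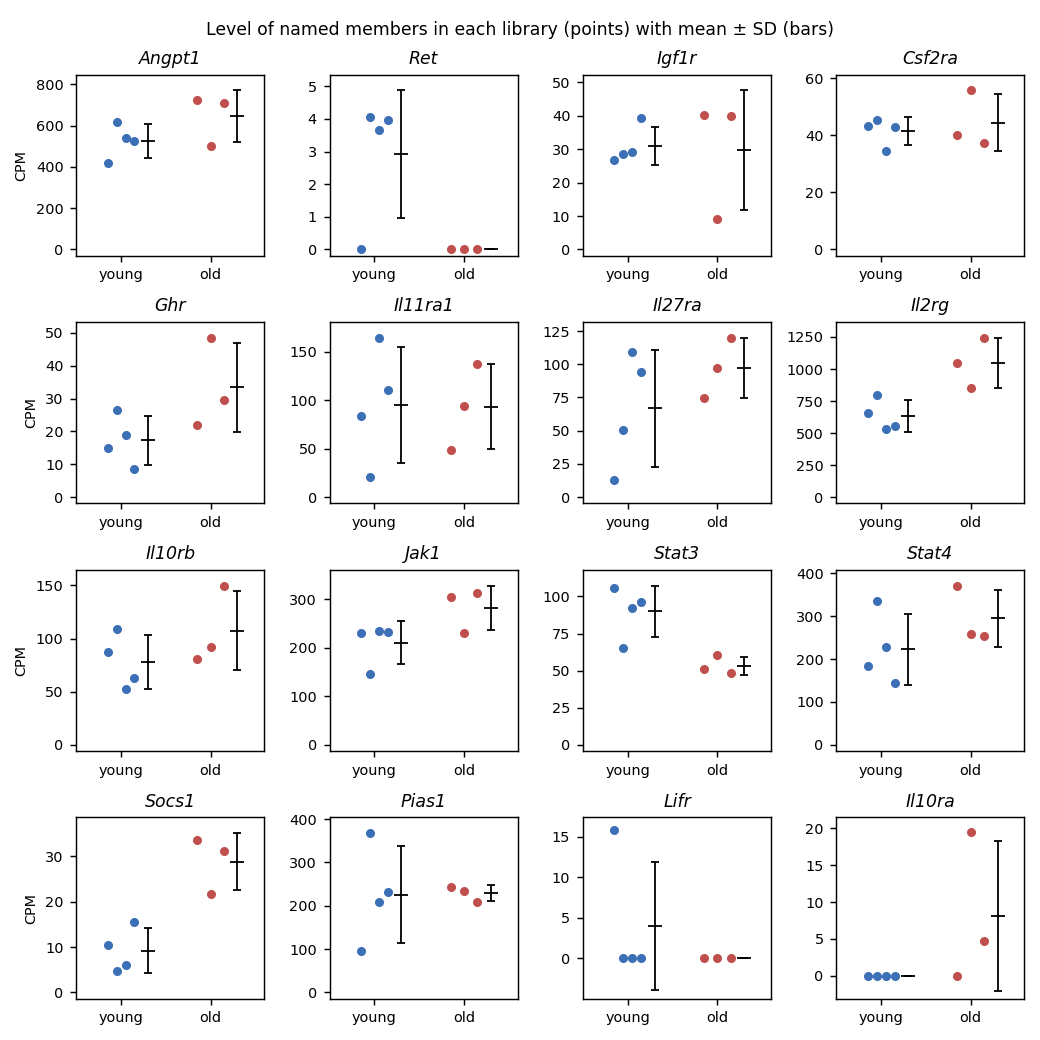
Level in CPM (y axes, linear and different for each gene) of 16 genes of the set in each young (blue) and old (red) library, with mean ± SD as bars. Il2rg and Socs1 are higher in every old library than in any young one and Stat3 is lower; the single points of Lifr and Il10ra above 0 belong to 1 young and 2 old libraries.

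Of the Janus kinases, Jak1, which serves several cytokine receptors of the set, was the highest. It was at 305, 231 and 313 CPM in old 1 to 3 and 230.3, 146, 235 and 233 CPM in young 1 to 4, with old 2 inside the young range (log2 fold change 0.42 ± 0.24 (SE), 95% interval -0.12 to 0.97, adjusted p = 0.704). Its log2 fold change was 0.28 without young 2 and 0.53 without old 2. Tyk2 was at 0 to 18.4 CPM in the old and 1.67 to 15.3 CPM in the young libraries.

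The log2 fold changes of the STAT factors differed in sign, but only the 95% interval of Stat3 excluded 0. Stat3, the main factor of gp130 and granulocyte colony-stimulating factor signals, was at 50.8, 60.2 and 48.3 CPM in old 1 to 3 and 105, 65.5, 92.4 and 96.6 CPM in young 1 to 4. Every old library lay below every young one, with old 2 and young 2 the closest. The means were 53.1 ± 6.31 CPM (SD, n = 3) in old HSCs against 90.0 ± 17.2 CPM (SD, n = 4) in the young, a log2 fold change of -0.76 ± 0.32 (SE) with a 95% interval of -1.49 to -0.03 and an adjusted p of 0.504 (edgeR). Stat5a and Stat5b, which mediate thrombopoietin and interleukin 3 signals, were at 10.1 to 44.6 CPM in the old and 37.8 to 78.6 CPM in the young libraries and at 16.1 to 24.3 CPM in the old and 2.97 to 70.9 CPM in the young libraries. Their log2 fold changes were -0.92 ± 0.59 (SE) and -0.71 ± 0.95 (SE) (adjusted p = 0.776 and 0.951), and 11% of the 50-base stretches of Stat5b also occur in another gene, nearly all in Stat5a.

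Stat4, known for interleukin 12 signals in lymphocytes, was the most abundant STAT gene of the set. It was at 371, 259 and 254 CPM in old 1 to 3 and 184, 336, 227 and 144 CPM in young 1 to 4, with old 1 highest and old 2 and old 3 inside the young range (log2 fold change 0.40 ± 0.31 (SE), adjusted p = 0.849). The log2 fold change of Stat4 was 0.20 without old 1 and 0.67 without young 2. Of the 50-base stretches of Stat4, 21.7% also occur in another gene, so its level is uncertain. Stat6, the factor of interleukin 4 signals, was at 47.3 to 84.8 CPM in the old and 18.2 to 87.6 CPM in the young libraries (log2 fold change 0.81 ± 0.61 (SE), adjusted p = 0.848).

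The inhibitors of these signals were expressed unequally. Socs1, which blocks JAK activity and is known as a brake on interferon signals, was at 33.6, 21.8 and 31.1 CPM in old 1 to 3 and 10.3, 4.75, 6.03 and 15.6 CPM in young 1 to 4. Every old library lay above every young one, with old 2 and young 4 the closest. The log2 fold change was 1.65 ± 0.82 (SE), the largest positive value among the genes of the set with a count in every library, but with a 95% interval of -0.19 to 3.49 it did not pass (adjusted p = 0.624 with edgeR and 0.158 with DESeq2). Cish and Socs2, classic targets of STAT5, were nearly level between the groups. Cish was at 59.5 to 124 CPM in the old and 67.3 to 86.7 CPM in the young libraries with a 95% interval of -0.65 to 0.89 for the log2 fold change, and Socs2 at 49.3 to 97.5 CPM in the old and 72.9 to 83.9 CPM in the young libraries with -0.73 to 0.76.

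Pias1, an inhibitor of STAT binding to DNA, was the highest of the inhibitors, at 244, 234 and 209 CPM in old 1 to 3 and 94.9, 367, 209 and 231 CPM in young 1 to 4. Its lowest and highest values were both young (log2 fold change 0.02 ± 0.38 (SE), adjusted p = 0.995). Its log2 fold change was -0.23 without young 1 and 0.36 without young 2. Socs3, the brake on gp130 signals, was at 0.0768 to 12.4 CPM in the old and 0 to 18.8 CPM in the young libraries, and Sh2b3 (Lnk), which restrains thrombopoietin signals, at 0 to 9.10 CPM in the old and 0 to 21.1 CPM in the young libraries, both with libraries at 0 and intervals beyond 4 log2 units on each side.

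Other genes of the same pathways were read from 4 lists. Of 24 tested genes of JAK-STAT signalling outside the set, none passed the adjusted threshold, 10 had a positive log2 fold change and the median was -0.13. Jak2, the kinase of the thrombopoietin receptor, averaged 78.1 ± 30.0 CPM in old against 76.0 ± 35.0 CPM in young libraries. At an unadjusted p under 0.05 there was 1 of the 24, against 9.12% of all tested genes. This was Cblb, a ubiquitin ligase that silences receptors, with 0.472 ± 0.576 CPM in old against 15.7 ± 16.9 CPM in young libraries (adjusted p = 0.532 with edgeR and 0.0450 with DESeq2). Its groups overlapped, with young 4 at 0.383 CPM and old 3 at 1.11 CPM. Of 23 tested other receptors, none passed, 9 had a positive log2 fold change and the median was -0.52. At an unadjusted p under 0.05 there were 3 of the 23, against 9.12% of all tested genes: Ifngr1 higher and Il12rb2 and Flt3 lower in old. DESeq2 called the same 3 genes, and 5.06% of all the genes it gave an adjusted p. The interferon gamma receptor chain Ifngr1 averaged 499 ± 114 CPM in old against 286 ± 35.9 CPM in young libraries and its groups did not overlap (log2 fold change 0.81 ± 0.22 (SE), adjusted p = 0.208 with edgeR and 0.0151 with DESeq2). Il12rb2, a chain of the interleukin 12 receptor, had no count in old HSCs and was at 2.72, 3.29, 41.8 and 8.98 CPM in young 1 to 4 (adjusted p = 0.165 with edgeR and 1.01e-06 with DESeq2). Flt3, a receptor kinase of multipotent progenitors, also had no count in old HSCs and was at 0, 6.26, 36.2 and 9.54 CPM in young 1 to 4 (adjusted p = 0.297 with edgeR and 0.000754 with DESeq2). Il12rb2 and Flt3 passed the count filter through young libraries alone, so their p-values are no separate support for a difference.

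Of 16 tested ligands, none passed and 10 had log2 fold changes above 0 (median 0.53). At an unadjusted p under 0.05 there were 2 of the 16, both higher in old, against 9.12% of all tested genes. DESeq2 called 1 of the 16, Pdgfa, and 5.06% of all the genes it gave an adjusted p. Vegfc, a vascular growth factor, averaged 69.2 ± 33.7 CPM in old against 30.0 ± 11.0 CPM in young libraries (adjusted p = 0.524 with edgeR and 0.237 with DESeq2), and Pdgfa, a platelet-derived growth factor chain, 3.10 ± 2.07 CPM in old against 0.0204 ± 0.0239 CPM in young libraries (adjusted p = 0.240 with edgeR and 0.0259 with DESeq2). Pdgfa passed the count filter through old libraries alone, so its p-values are no separate support for a difference. Of 18 tested genes known to be induced by STAT factors, none passed and 13 had log2 fold changes above 0 (median 0.49). At an unadjusted p under 0.05 there were 4, all higher in old, against 4.62% of all tested genes in that direction, and DESeq2 called none of the 18. Pim2, a survival kinase, averaged 244 ± 16.3 CPM in old against 135 ± 34.8 CPM in young libraries (adjusted p = 0.281), the stress gene Gadd45g 116 ± 34.1 CPM in old against 38.4 ± 21.1 CPM in young libraries (adjusted p = 0.295), Junb, an AP-1 subunit, 524 ± 72.3 CPM in old against 365 ± 65.3 CPM in young libraries (adjusted p = 0.459) and Bcl3, an NF-kappaB cofactor, 47.8 ± 15.3 CPM in old against 19.5 ± 3.10 CPM in young libraries (adjusted p = 0.498).

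Markers of HSCs and of other marrow cells were summed per library to show what else moved with age. All 14 HSC markers had counts, and their sum was 4203 to 4833 CPM in the old and 2224 to 3237 CPM in the young libraries. The means differed most for Pdzk1ip1 (892 CPM in old against 226 CPM in young libraries) and Ly6a (538 against 167 CPM). The markers did not all move alike: Hlf, Kit, Meis1, Gata2 and Ctnnal1 had negative log2 fold changes. The 3 markers of multipotent progenitors summed to 85.2 to 135 CPM in the old and 261 to 406 CPM in the young libraries. The 17 monocyte and macrophage markers summed to 904 to 1477 CPM in the old and 748 to 1443 CPM in the young libraries, nearly all of it Lyz2, with Emr1, Ccr2 and Cx3cr1 at 0 in every library. The 12 neutrophil and granulocyte progenitor markers summed to 548 to 794 CPM in the old and 112 to 231 CPM in the young libraries. Nearly all of it in the old was Prtn3, at 546 to 772 CPM in the old and 98.4 to 206 CPM in the young libraries. Ltf, Retnlg, Ctsg and Fcnb were at 0. The 13 lymphocyte markers summed to 287 to 465 CPM in the old and 204 to 521 CPM in the young libraries, with Ms4a1, Pax5, Ebf1, Cd3e, Cd2 and Ncr1 at 0. Most of the sum came from 3 genes. Cd79b, a B cell receptor subunit, was at 73.4 to 191 CPM in the old and 122 to 185 CPM in the young libraries, Nkg7, a granule gene of natural killer and T cells, at 21.3 to 105 CPM in the old and 65.4 to 382 CPM in the young libraries, and Klrb1c, a receptor of natural killer cells, at 109 to 238 CPM in the old and 0 to 12.2 CPM in the young libraries.

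The 17 endothelial markers summed to 782 to 804 CPM in the old and 544 to 745 CPM in the young libraries, with Sox17 and Lyve1 at 0 and Cdh5, the endothelial cadherin, at 0 in every library but young 1 (4.07 CPM). The 10 megakaryocyte markers summed to 191 to 380.3 CPM in the old and 336 to 607 CPM in the young libraries, with Gp6 at 0. The 14 erythroid markers summed to 7239.6 to 10224 CPM in the old and 4145 to 7185 CPM in the young libraries, nearly all of it Car2, with Ermap and the haemoglobin genes listed at 0. The other 13 erythroid markers summed to 23.5 to 83.4 CPM in the old and 96.3 to 138 CPM in the young libraries, so without Car2 the sum was lower in every old library. The 14 stromal markers summed to 0.0768 to 8.69 CPM in the old and 0.0361 to 27.2 CPM in the young libraries, with Col3a1, Adipoq, Kitl, Dcn, Lum, Bglap2 and Sp7 at 0. The sums for HSCs, granulocyte progenitors (set by Prtn3), endothelium, erythroid cells (set by Car2) and multipotent progenitors did not overlap between the groups. Neither did the levels of Il2rg, Socs1 and Stat3. The part of these cell types in the results was not tested.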

How the data were processed

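Bulk RNA sequencing of 3 old and 4 young HSC libraries was analysed. Per the labels' protocols, cDNA was made with Smart-seq+ and libraries with Nextera XT, a kit without strand marking. Trimmomatic, FastQC, STAR, featureCounts and the build mm9 are named in the submitters' processing notes, and their settings and the annotation are not given here. The authors deposited raw read counts per gene symbol, with amplification copies included. Counts were analysed in R 4.3.3. Genes passing filterByExpr of edgeR 4.0.16 (minimum count 10, minimum total 15; 11506 genes) were scaled with TMM and tested, old against young, with glmQLFit and glmQLFTest, 2-sided, group as the only term, Benjamini-Hochberg over all tested genes. SE is the absolute log2 fold change over the square root of F, and 95% intervals use its t quantile. Folds against a group at 0 use 3 counts per library, averaged over the group. Alternatives were DESeq2 1.42.0, limma-voom (limma 3.58.1), 3 scalings, 2 filters, the replicate block and leaving out each library. DESeq2 without each library, the Il10ra bound without each old library and the erythroid sum without Car2 were chosen after seeing the data. The procedure was run on simulated data, and how many of the known changes it recovered is not reported here. Exon lengths and shared 50-base stretches came from GENCODE M21, which differs from mm9.

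The genes, lists and tests were chosen with earlier results of these data known. Values in each library were written out for genes of the set with an unadjusted p under 0.05 or groups that did not overlap, for the smallest p and highest level in each role, and for those at 0 in 1 group only with at least 1 CPM in the other. Of each pathway list, up to 4 genes at an unadjusted p under 0.05 could be named. Genes named beyond this, Tek, Tie1, Cish, Socs2 and Jak2 among them, were chosen for their role or after their values were seen. Genes whose level runs like that of Tek, also part of the rule, are not reported. Agreement between libraries of a group was checked, and no pair agreed within sampling noise.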

Additional observations from a re-analysis of the deposited data

Results flagged for a closer look

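In 11 of the 42 genes of the set whose level varied among the 4 young libraries, 1 young library lay far from the other 3 by Dixon's test at the 95% level, where chance gives about 1 in 20 groups of normally spread values. In 5 of the 11 (Lifr, Osmr, Csf2rb, Met and Csf2rb2), none of them with counts in enough libraries for the edgeR test, the other 3 libraries had no count, so the test is met whatever the value. The other 6 were among the 37 tested genes of the set (16.2%). With genes at 0 in 3 young libraries left out, the share was 8.4% of the 11255 tested genes that varied among the young libraries. The difference was not tested. Groups of 3, such as the old libraries, were not examined. In 9 genes 1 library was high. Young 1 was high for Lifr (15.8 CPM against 0), Osmr (9.33 CPM against 0) and Il6st (19.6 CPM against 0 to 2.65 CPM), 3 chains of gp130 receptors. Young 3 was high for Csf2rb (16.1 CPM against 0), Il6ra (15.2 CPM against 0 to 0.228 CPM) and Stat6 (87.6 CPM against 18.2 to 26.0 CPM). Young 4 was high for Kdr (7.94 CPM against 0 to 0.131 CPM), Met (3.52 CPM against 0) and Csf2rb2 (2.23 CPM against 0). In 2 genes 1 library was low: Ret had 0 CPM in young 1 against 3.65 to 4.06 CPM, and Jak1 146 CPM in young 2 against 230.3 to 235 CPM.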

How the results depend on the processing

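No gene of the set passed the adjusted threshold in 14 of the 15 alternatives, and 2 did with DESeq2. Over all genes 29 passed, against 591 with DESeq2 (286 higher and 305 lower in old), 50 with limma-voom (49 higher and 1 lower), 16 with library size alone, 130 with the test restricted to means of 50 CPM or more (79 higher and 51 lower), 0 with the replicate block and 2 to 18 without 1 library (2 without old 1 or old 3, 12 without old 2, 14, 18, 10 and 11 without young 1 to 4). Genes of the set at an unadjusted p under 0.05 numbered 3, against 5 with DESeq2, 1 with limma-voom, 1 with means of 50 CPM or more, 0 with the replicate block and 1 to 4 without 1 library (1 without old 3 and without young 4). The median log2 fold change of the set was 0.04 to 0.34 in the 8 alternatives with all libraries and -0.01 to 0.31 without 1 library, within the spread between libraries. Of 14 named genes tested, 10 kept their direction in every alternative in which they were tested. Log2 fold changes near 0 changed sign for Il11ra1 (0.12 with limma-voom, 0.34 with the replicate block, and -0.41 to 0.39 without 1 library), Pias1 (-0.052 with library size alone, -0.019 with means of 50 CPM or more, and -0.23 to 0.36 without 1 library), Igf1r (-0.34 to 0.36 without 1 library) and Csf2ra (-0.11 to 0.21 without 1 library). The cause was not tested. Library size alone moved the median of all genes to -0.12. No pairing by shared number was visible between old and young libraries: the deviations of same-numbered libraries correlated at 0.03, -0.07 and -0.01. Those of differently numbered libraries correlated at -0.07 to 0.08. With so large a spread, values near 0 cannot show that same-numbered libraries were prepared apart. Fits without 1 library test fewer samples. Receptors with under about 10 CPM had libraries at 0 and could not be resolved at this spread.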
